A study of Homo sapiens with 48 samples.

Results

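The genes described here are the 38 genes of N-glycan precursor synthesis and trimming, out of 58302 genes in the count table of a study in AMO1, a line of human myeloma (plasma cell tumour) cells. They were chosen by name, from what the encoded enzymes do, and each had its own row in the table. RNA was sequenced from 48 libraries of 4 single-cell AMO1 clones. Clones 1 and 3 of shIRE1 carried shRNAs against ERN1, the gene of the endoplasmic reticulum stress sensor IRE1, and clones 1 and 18 of shXBP1 carried shRNAs against XBP1. Doxycycline (0.2 µg/ml) switched the shRNAs on, and each clone was taken untreated (0 h) and after 24, 48 and 72 h, with 3 replicate flasks at each time, or 16 groups. All groups shared the parental line and an integrated doxycycline-inducible vector, in which several shRNAs against a single gene were combined. No library of a non-targeting shRNA was analysed here, so that effects of doxycycline or of shRNA expression itself are part of every change and cannot be told apart from loss of the target.

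N-linked glycoproteins carry a sugar tree that is first built on a lipid, dolichyl pyrophosphate, in the membrane of the endoplasmic reticulum. Enzymes on the cytosolic face start the tree from UDP-GlcNAc and GDP-mannose, the intermediate is flipped, and enzymes on the lumenal face complete it with mannose and glucose taken from dolichol-linked donors. The finished tree is moved to new proteins by the oligosaccharyltransferase, after which glucosidases and a mannosidase trim it while a glucosyltransferase marks misfolded glycoproteins for another round of folding. Plasma cells secrete immunoglobulin, a glycoprotein, in large amounts, and the transcription factor made from XBP1 mRNA after splicing by IRE1 is known to drive many genes of the secretory pathway.

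Promoter sequence from RefSeq (GRCh38.p14, 250 bases before to 50 bases after the annotated start, transcribed strand) was found for 36 of the 38 genes. ALG10 and MOGS had no entry. Words tied to the unfolded protein response were searched on both strands. The first was TGACGTGG. A shorter word was CCACG. A longer word held CCAAT at its start and, after 9 bases of any kind, the shorter word. The last was TGATGNAAT. The shorter word thus lies within the longer one, and its reverse complement lies within TGACGTGG. CCACG was present in 27 of the 36 promoters, against 37.9% of all 27305 promoters in the table and 44% of the 15843 promoters of protein-coding genes. TGACGTGG occurred only in DHDDS among the 36, with a share of 0.795% over all promoters. The longer, spaced word occurred only in ALG12, with a share of 0.0806% over all promoters. TGATGNAAT occurred in 0 of the 36 and in 1.02% of all promoters. A match is a description of the letters and not a bound site.

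The promoters of DHDDS and ALG12 are shown as the holders of the rarer words, and those of PGM3, ALG5 and ALG9 because these genes carry large falls described below, a choice made after their values were seen. Capitals mark every searched word on either strand.
DHDDS (chr1:26432071-26432370, plus strand): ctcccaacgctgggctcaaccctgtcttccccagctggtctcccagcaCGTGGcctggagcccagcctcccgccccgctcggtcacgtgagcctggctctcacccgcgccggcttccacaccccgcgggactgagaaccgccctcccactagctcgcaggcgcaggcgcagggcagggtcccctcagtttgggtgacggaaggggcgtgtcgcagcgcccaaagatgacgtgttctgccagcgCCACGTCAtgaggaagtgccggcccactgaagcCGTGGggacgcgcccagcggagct
ALG12 (chr22:49918389-49918688, minus strand): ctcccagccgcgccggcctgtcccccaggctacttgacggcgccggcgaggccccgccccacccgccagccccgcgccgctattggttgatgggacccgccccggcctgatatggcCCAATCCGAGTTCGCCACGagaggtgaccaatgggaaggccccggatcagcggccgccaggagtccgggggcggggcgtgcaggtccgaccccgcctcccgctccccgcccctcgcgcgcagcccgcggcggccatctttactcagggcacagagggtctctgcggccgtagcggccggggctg
PGM3 (chr6:83193216-83193515, minus strand): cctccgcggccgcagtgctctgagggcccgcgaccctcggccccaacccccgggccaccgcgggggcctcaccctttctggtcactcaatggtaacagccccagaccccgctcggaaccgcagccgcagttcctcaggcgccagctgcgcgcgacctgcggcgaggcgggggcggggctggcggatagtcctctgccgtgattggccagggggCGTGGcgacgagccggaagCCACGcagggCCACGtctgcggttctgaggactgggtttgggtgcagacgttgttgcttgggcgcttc
ALG5 (chr13:36999291-36999590, minus strand): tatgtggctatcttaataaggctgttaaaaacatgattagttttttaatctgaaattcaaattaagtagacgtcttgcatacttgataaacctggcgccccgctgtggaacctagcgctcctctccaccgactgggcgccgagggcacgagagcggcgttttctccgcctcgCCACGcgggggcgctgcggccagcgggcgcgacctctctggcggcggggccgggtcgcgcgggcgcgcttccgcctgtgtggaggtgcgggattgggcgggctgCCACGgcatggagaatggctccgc
ALG9 (chr11:111871252-111871551, minus strand): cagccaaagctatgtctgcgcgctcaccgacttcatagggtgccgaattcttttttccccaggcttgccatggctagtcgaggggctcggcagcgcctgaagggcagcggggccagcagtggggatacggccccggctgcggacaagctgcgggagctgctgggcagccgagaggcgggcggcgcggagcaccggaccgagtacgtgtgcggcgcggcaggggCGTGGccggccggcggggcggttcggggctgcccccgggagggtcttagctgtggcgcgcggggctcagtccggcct
PGM3, whose RNA fell in all 4 clones at 72 h, held CCACG 3 times close to its start. Of the other genes that fell in all 4, ALG5 and MPDU1 each held it 2 times and GMPPB and GANAB 1 time. UAP1, GMPPA, ALG2 and PRKCSH, which also fell in all 4, held it 0 times. ALG11, which fell in none of the 4 by the test used below, held it 5 times. A link between the word and the falls was not tested.

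Total counts ran from 19177855 to 40767202 per library (median 30776246.5), so that a single count was worth at most 0.0521 CPM, a count scaled to the size of its library. Every one of the 38 genes held at least 50 counts in each library and entered every test. All 12 listed plasma cell markers were present in every library, from SDC1 (5126 to 15190 CPM), IGKC (5771 to 41190 CPM), JCHAIN (966.6 to 7204 CPM) and IRF4 (304.6 to 1694 CPM) down to SLAMF7, TNFRSF17 and XBP1, whose lowest values were 59.8, 41.5 and 31.95 CPM, while PAX5, CD3D, CD14, LYZ and EPCAM stayed at or under 0.690 CPM in all. CIITA (34.5 to 212.9 CPM) and CD3E (4.57 to 17.5 CPM) were the highest of the listed markers of other cell types, with TRAC, KRT18, MS4A1 and COL1A1 at up to 5.91, 3.52, 2.31 and 1.28 CPM. ERN1 fell at 72 h by 0.58 ± 0.040 (SE, log2) in shIRE1 clone 1 and by 1.82 ± 0.049 in shIRE1 clone 3, which stood at 152.5 and 432.1 CPM before treatment. XBP1 fell at 72 h by 2.32 ± 0.071 and by 2.16 ± 0.086 on the log2 scale in shXBP1 clones 1 and 18. In the shIRE1 clones the XBP1 mRNA also fell, by 0.38 ± 0.037 and 0.86 ± 0.063. The ERN1 mRNA moved in opposite directions in the shXBP1 clones at 72 h. It rose by 0.72 ± 0.044 in shXBP1 clone 1 and fell by 0.29 ± 0.060 in shXBP1 clone 18.

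A pair of libraries stood apart from their labels. Replicate 3 of shXBP1 clone 18 at 72 h correlated more closely with shXBP1 clone 1 at 72 h (r = 0.9957, log2 CPM across genes) than with its own group (r = 0.9849), and it was nearer to clone 1 at 50 of the 50 genes that part the shXBP1 clones most. Replicate 1 of shIRE1 clone 3 at 24 h correlated more closely with shIRE1 clone 1 at 24 h (r = 0.9944) than with its own group (r = 0.9923). It was nearer to clone 1 at 29 of the 50 genes that part the shIRE1 clones most. Replicates 2 and 3 of its group were so at 17 and 13, and the untreated libraries of clone 3 at 26, 29 and 27. The case is thus weaker than for the shXBP1 library. Both were kept under their labels, and the main counts of called genes that they touch are given with and without them.

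After 72 h of doxycycline the fitted log2 change was negative for 32 of the 38 genes in each shIRE1 clone, 31 in shXBP1 clone 1 and 33 in shXBP1 clone 18. At 72 h the test called 29 of them lower and 4 higher in shIRE1 clone 1, 26 lower and 2 higher in shIRE1 clone 3, 19 lower and 2 higher in shXBP1 clone 1, and 14 lower and 0 higher in shXBP1 clone 18. In the last, edgeR gave 22 lower and 1 higher at an unadjusted p under 0.05, and DESeq2 and limma called 16 and 15 lower and 0 higher. For these settings the shares of all genes are not given here, so the counts have no background to be read against. A call is an adjusted p under 0.05 over all genes tested in a clone (edgeR quasi-likelihood test). Among all genes tested the called shares at 72 h were 31.1% lower and 32.5% higher in shIRE1 clone 1, and 30.5% lower and 29.7% higher in shIRE1 clone 3. In shXBP1 clone 1 they were 16.8% lower and 16.8% higher, and in shXBP1 clone 18 they were 5.55% lower and 4.41% higher. The median log2 change of the 38 genes was -0.47, -0.44, -0.28 and -0.24 in the 4 clones in this order, beside a median over all genes tested of 0.018, 0.015, -0.012 and -0.0071. In bulk RNA, fewer cells of a kind and less RNA per cell cannot be told apart. Without the doubtful library, 13 were lower in shXBP1 clone 18 at 72 h, and 27 were lower in shIRE1 clone 3.

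**Figure D1:**
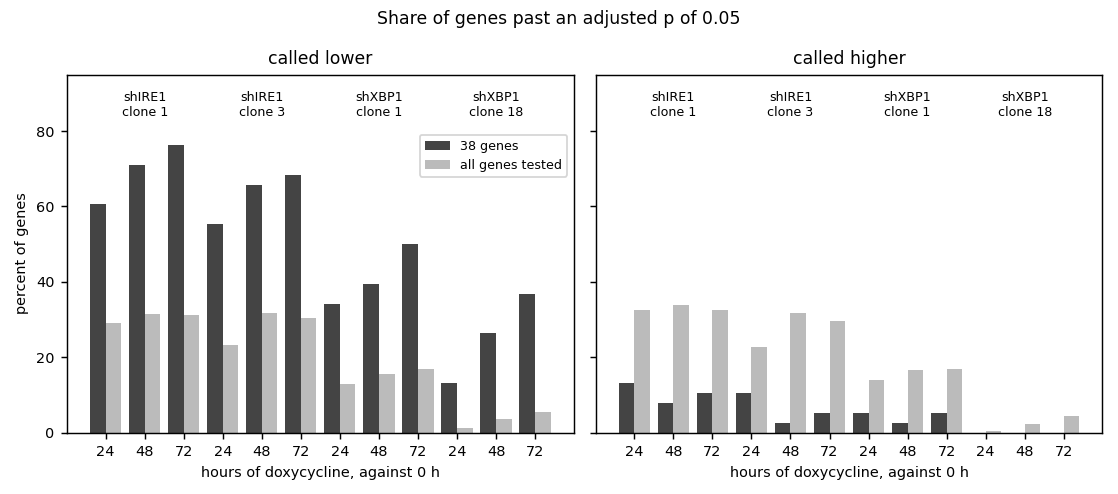
Percent of the 38 genes (dark bars) and of all genes tested (light bars) called lower (left) or higher (right) at 24, 48 and 72 h against 0 h in each clone, by an adjusted p under 0.05. The dark bars exceed the light bars in every clone and time on the left and stay below them on the right.

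Falls were already called at 24 h. In shIRE1 clone 1, 23 genes were lower and 5 higher at 24 h (all genes 29% and 32.4%), and 27 were lower and 3 higher at 48 h (31.5% and 33.9%). In shIRE1 clone 3, 21 were lower and 4 higher at 24 h (23.3% and 22.8%), and 25 were lower and 1 higher at 48 h (31.6% and 31.6%). The times gave 13 lower and 2 higher in shXBP1 clone 1 at 24 h (12.8% and 13.9%), and 15 lower and 1 higher at 48 h (15.5% and 16.6%). In shXBP1 clone 18 the calls were 5 lower and 0 higher at 24 h (1.3% and 0.291%), and 10 lower and 0 higher at 48 h (3.5% and 2.28%). For the 24 h and 48 h comparisons of this clone, leaving out replicate 3 at 72 h, which enters only the estimate of spread, raised the calls to 11 and 16 genes, all lower. The genes called lower over all 17171 tested then numbered 571 and 1230. Without the doubtful library of shIRE1 clone 3 its 24 h calls were 20 lower and 6 higher.

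In the shIRE1 clones many genes were lower at 72 h than at 24 h. The median log2 change against 0 h was no larger at 72 h than at 48 h. It was -0.48 at 48 h and -0.47 at 72 h in shIRE1 clone 1, and -0.53 and -0.44 in shIRE1 clone 3. The step from 48 to 72 h was not tested. In shIRE1 clone 1, 23 genes were lower and 1 higher at 72 h than at 24 h (all genes 13.9% and 15.2%). In shIRE1 clone 3, 23 were lower and 0 higher (17.1% and 16.4%), and 22 and 0 without its doubtful library. In the shXBP1 clones edgeR called 0 genes between these times (0.0542% lower and 0.151% higher over all genes in clone 1, 0.0949% and 0.0297% in clone 18). At an unadjusted p under 0.05 there were 11 and 9 genes in the shXBP1 clones, DESeq2 called 1 and 2, and limma called 0 in both.

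In both shIRE1 clones 25 of the 38 genes were called lower at 72 h (21.4% of all genes tested in both) and 2 were called higher (20.5%). The pair that rose was MPI, which makes mannose-6-phosphate from fructose-6-phosphate, and MAN1B1, the mannosidase that trims glycans of the endoplasmic reticulum. In both shXBP1 clones 12 genes were called lower (2.19%) and 0 higher (1.44%). The 9 called lower in all 4 clones (1.22%) were PGM3, UAP1, GMPPA, GMPPB, ALG5, MPDU1, ALG2, GANAB and PRKCSH, and 0 were higher in all 4 (0.598%). Without the doubtful libraries the counts were 26, 11 and 10 lower in the shIRE1 clones, the shXBP1 clones and all 4. In the last of these sets DPAGT1 and MOGS joined and MPDU1 was no longer called.

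**Figure D2:**
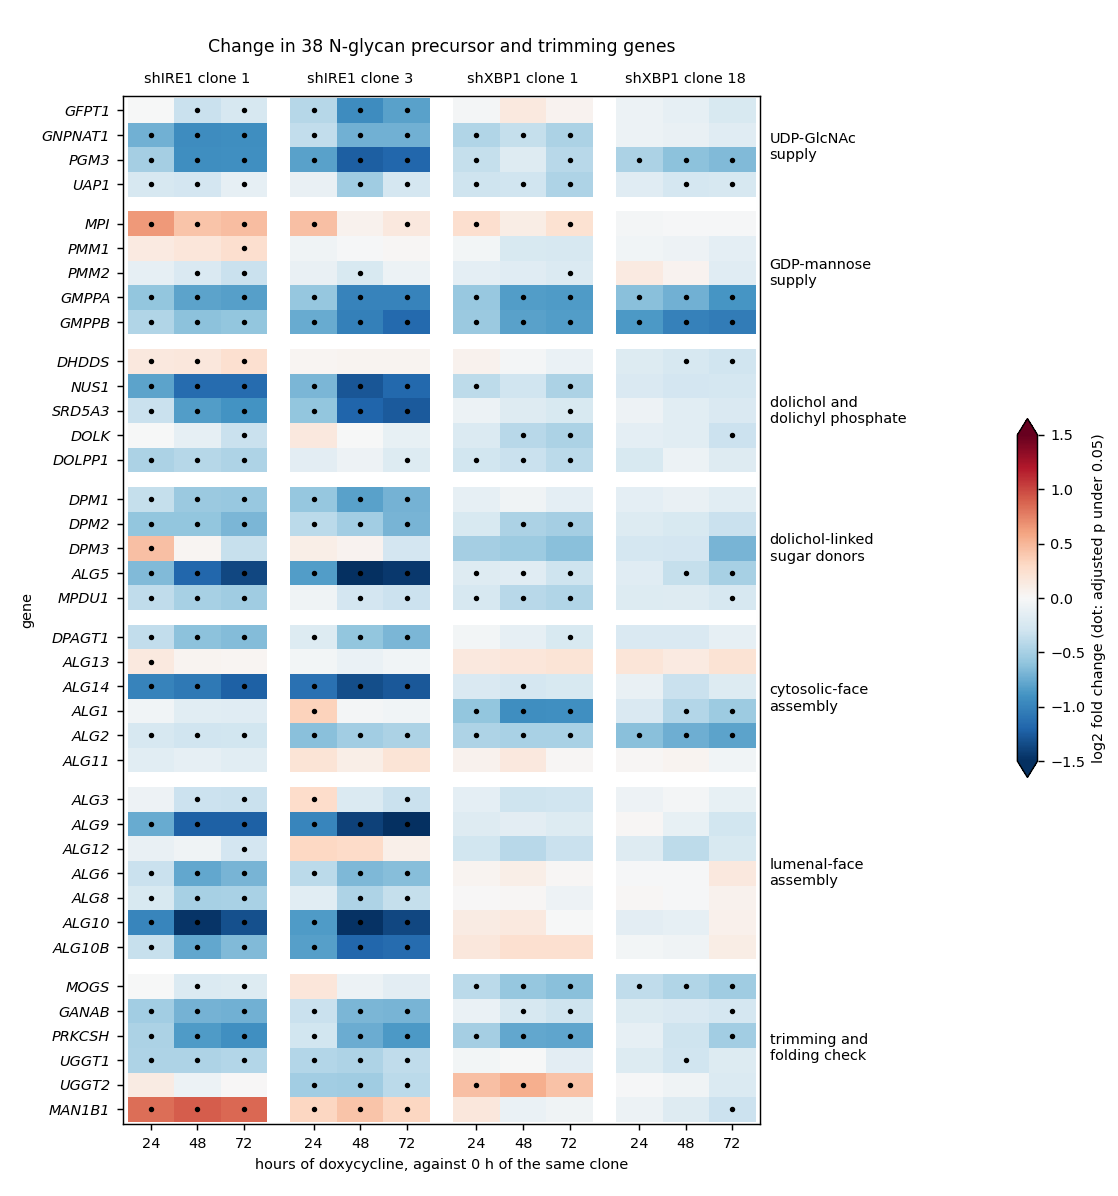
Log2 fold change of each of the 38 genes (rows, grouped by role) at 24, 48 and 72 h against 0 h of the same clone (columns). Blue is lower and red is higher, and a dot marks an adjusted p under 0.05. The lumenal-face block is dark blue in the shIRE1 clones for ALG9, ALG10 and ALG10B and holds no dot in the shXBP1 clones.

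The 4 genes of UDP-GlcNAc supply, GFPT1, GNPNAT1, PGM3 and UAP1, encode the successive enzymes that turn fructose-6-phosphate into UDP-GlcNAc. All 4 were called lower in each shIRE1 clone at 72 h (31.1% and 30.5% of all genes), 3 in shXBP1 clone 1 (16.8%) and 2 in shXBP1 clone 18 (5.55%). PGM3, the phosphoacetylglucosamine mutase, fell most over the shIRE1 clones and also led this group over the shXBP1 clones. In shIRE1 clone 1 its libraries read 30.9, 29.7 and 28.9 CPM at 0 h and 15.1, 15.95 and 16.5 CPM at 72 h. PGM3 in shIRE1 clone 3 read 35.4, 35.5 and 33.4 CPM at 0 h and 14.0, 14.97 and 18.1 CPM at 72 h. All treated libraries of these clones lay below all untreated ones, with log2 changes of -0.92 ± 0.062 (SE, edgeR adjusted p = 2.27e-10) and -1.19 ± 0.081 (6.2e-09). The shXBP1 clone 1 libraries of PGM3 gave 24.2, 29.1 and 26.1 CPM at 0 h and 19.1, 20.1 and 21.5 CPM at 72 h. Those of shXBP1 clone 18 gave 34.3, 42.2 and 37.9 CPM at 0 h and 25.8, 26.6 and 20.2 CPM at 72 h, the last being the library that resembles clone 1. The groups did not overlap in either clone, and PGM3 changed by -0.41 ± 0.097 (adjusted p = 0.00732) and -0.66 ± 0.11 (adjusted p = 0.00206). At 48 h the fall of PGM3 in shXBP1 clone 1 was not called (-0.19 ± 0.097, adjusted p = 0.147).

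GFPT1, the glutamine-using enzyme that opens the hexosamine route, fell by 0.26 ± 0.04 (SE, log2) in shIRE1 clone 1 and by 0.81 ± 0.05 in shIRE1 clone 3. In the shXBP1 clones its changes were 0.05 ± 0.09 and -0.25 ± 0.12 and were not called. At 72 h GFPT1 read 396, 435 and 283 CPM in shXBP1 clone 18, the last being the library that resembles clone 1. GNPNAT1, the acetyltransferase, went from 70.1 to 37.0 CPM (mean) in shIRE1 clone 1 and from 48.4 to 30.0 CPM in shIRE1 clone 3, and was lower in shXBP1 clone 1 (-0.47 ± 0.12) but not called in clone 18 (-0.18 ± 0.10). UAP1, the last enzyme, stood at 362.3 to 657.1 CPM over the 48 libraries and was called lower in every clone, by 0.13 to 0.46 on the log2 scale.

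Of the 5 genes of GDP-mannose supply, GMPPA and GMPPB, the subunits of GDP-mannose pyrophosphorylase, fell in all 4 clones at all 3 times. GMPPA read 76.5, 76.4 and 81.4 CPM at 0 h and 46.6, 42.9 and 42.9 CPM at 72 h in shIRE1 clone 1. In shIRE1 clone 3 the values were 91.2, 81.1 and 92.1 CPM against 46.9, 44.6 and 43.7 CPM. The 72 h libraries of GMPPA were thus below all untreated ones in both, and the changes were -0.83 ± 0.059 and -1.01 ± 0.064 (SE, log2). For shXBP1 clone 1 GMPPA gave 104, 92.8 and 88.9 CPM at 0 h and 55.5, 54.0 and 52.2 CPM at 72 h. For shXBP1 clone 18 it gave 106, 97.7 and 98.5 CPM and then 61.2, 49.8 and 52.3 CPM. Again no treated library reached an untreated one, and the changes were -0.84 ± 0.084 and -0.89 ± 0.082 (adjusted p = 2.71e-05 and 1.97e-05). The shIRE1 and shXBP1 changes of GMPPA differed by -0.05 (95% interval -0.20 to 0.09, adjusted p = 0.555), which leaves room for a small difference in either direction.

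GMPPB led this group over the shXBP1 clones. It went from 34.0, 27.5 and 28.7 CPM to 18.1, 16.1 and 17.3 CPM in shXBP1 clone 1, and from 34.1, 32.4 and 34.0 CPM to 17.8, 14.5 and 16.2 CPM in shXBP1 clone 18. These falls, without overlap, were 0.84 ± 0.11 and 1.05 ± 0.091 on the log2 scale. In shIRE1 clone 1 GMPPB read 21.6, 27.4 and 25.6 CPM at 0 h and 16.9, 16.3 and 16.8 CPM at 72 h, and in shIRE1 clone 3 it read 28.4, 31.6 and 31.4 CPM and then 16.5, 13.4 and 11.9 CPM. The treated libraries were below the untreated ones in both, with changes of -0.59 ± 0.082 and -1.16 ± 0.10. The difference between shIRE1 and shXBP1 changes was 0.07 (95% interval -0.13 to 0.26, adjusted p = 0.598). On the reference annotation AMIGO3 on the same strand covers 42.56% of the exonic bases of GMPPB, so that the split of reads between them is uncertain.

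The other GDP-mannose genes moved little or rose. MPI rose from 62.9 to 87.5 CPM (mean) in shIRE1 clone 1, from 72.1 to 82.6 CPM in shIRE1 clone 3 and from 54.4 to 64.8 CPM in shXBP1 clone 1, and stood at 68.3 and 67.3 CPM in shXBP1 clone 18. PMM1, a phosphomannomutase, was called higher in shIRE1 clone 1 alone (0.25 ± 0.10, SE, log2). PMM2, the phosphomannomutase best known from congenital glycosylation disease, was lower in shIRE1 clone 1 (-0.34 ± 0.07) and shXBP1 clone 1 (-0.22 ± 0.07), and was not called at 72 h in the other clones. FAM219B on the opposite strand overlaps 24.51% of the exonic bases of MPI, and the sources used here do not give whether counting used strand. Other genes on the opposite strand overlap 35.56% of the exonic bases of GNPNAT1 and 39.12% of those of ALG12.

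Among the 5 genes that make and recycle dolichol, NUS1 and SRD5A3 showed the larger falls, both in the shIRE1 clones. NUS1 encodes the partner of DHDDS in the cis-prenyltransferase that builds the dolichol chain. It read 29.4, 30.5 and 28.1 CPM at 0 h and 13.1, 13.1 and 13.5 CPM at 72 h in shIRE1 clone 1. NUS1 in shIRE1 clone 3 read 23.9, 23.3 and 22.3 CPM and then 9.16, 10.8 and 11.6 CPM. No library of 72 h reached the untreated level, and the changes were -1.15 ± 0.072 (SE, log2, adjusted p = 7.09e-11) and -1.18 ± 0.094 (adjusted p = 3.87e-08). NUS1 in shXBP1 clone 1 went from 21.2, 23.2 and 25.0 CPM to 16.2, 17.0 and 17.7 CPM, a called fall of 0.47 ± 0.11. In shXBP1 clone 18 it went from 22.4, 25.4 and 23.4 CPM to 17.6, 20.5 and 21.4 CPM, which was not called (-0.26 ± 0.093, adjusted p = 0.0936). The groups did not overlap in either shXBP1 clone. The shIRE1 fall of NUS1 was the greater by 0.80 (95% interval of the difference -0.99 to -0.62, adjusted p = 2.1e-09). NUS1P1, a copy elsewhere in the genome, shares 13.4% of the 50-base words of the NUS1 transcript.

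SRD5A3, the polyprenol reductase that yields dolichol, fell by 0.90 ± 0.07 and 1.26 ± 0.10 (SE, log2) in shIRE1 clones 1 and 3. In shXBP1 clone 1 SRD5A3 was called lower (-0.24 ± 0.07), and in clone 18 the change of -0.23 ± 0.08 was not called. A readthrough gene on the same strand shares 38.5% of the 50-base words of its transcript. DHDDS, whose promoter is printed above, stayed between 46.1 and 65.7 CPM over all 48 libraries, and was higher in shIRE1 clone 1 (0.24 ± 0.05) and lower in shXBP1 clone 18 (-0.30 ± 0.07). DOLPP1, the pyrophosphatase that recycles the lipid, was lower in both shIRE1 clones and shXBP1 clone 1, by 0.21 to 0.46.

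DOLK, the dolichol kinase that makes dolichyl phosphate, was the member of this group with calls in both shXBP1 clones. Its libraries of shXBP1 clone 1 held 42.7, 38.5 and 38.1 CPM at 0 h and 28.2, 30.2 and 29.3 CPM at 72 h. DOLK in shXBP1 clone 18 held 44.4, 41.4 and 40.6 CPM and then 35.9, 33.0 and 31.9 CPM. All treated values were below all untreated ones, with changes of -0.47 ± 0.088 (SE, log2, adjusted p = 0.00192) and -0.32 ± 0.090 (adjusted p = 0.0391). The second call of DOLK was lost with the replicate number as a block, with only the 6 libraries compared, on leaving out any single untreated library, and on leaving out replicate 2 or 3 at 72 h (adjusted p = 0.069 to 0.156). In shIRE1 clone 1 DOLK fell from 36.7, 38.5 and 37.0 CPM to 31.7, 28.6 and 29.7 CPM (-0.33 ± 0.062, adjusted p = 0.000135). In shIRE1 clone 3 it read 34.2, 31.3 and 32.1 CPM and then 31.8, 29.7 and 30.7 CPM, groups that overlap, with no call. The difference between shIRE1 and shXBP1 changes was 0.17 (95% interval 0.02 to 0.32, adjusted p = 0.0547) at 72 h and was called at 24 and 48 h (0.25 and 0.22).

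The dolichol-linked donors are dolichyl phosphate mannose, made by DPM1, DPM2 and DPM3, and dolichyl phosphate glucose, made by ALG5. MPDU1 is needed for their use. ALG5 carried the largest mean fall of this group in the shIRE1 clones. In clone 1 it read 67.03, 68.1 and 65.6 CPM at 0 h and 27.8, 27.6 and 22.9 CPM at 72 h. In clone 3 ALG5 read 68.3, 67.3 and 66.3 CPM and then 25.4, 24.7 and 25.9 CPM. The treated libraries were far below the untreated ones in both, and the changes were -1.37 ± 0.066 (SE, log2, adjusted p = 1.59e-12) and -1.45 ± 0.059 (adjusted p = 2.09e-11). For shXBP1 clone 1 ALG5 gave 66.0, 75.6 and 70.6 CPM and then 56.2, 57.9 and 59.5 CPM. For shXBP1 clone 18 it gave 90.2, 102 and 98.6 CPM and then 70.8, 76.6 and 58.8 CPM, the last again the library that resembles clone 1. These smaller falls, also without overlap, were 0.32 ± 0.060 and 0.49 ± 0.084. The changes of shIRE1 and shXBP1 differed by -1.002 (95% interval -1.14 to -0.87, adjusted p = 9.96e-16).

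DPM1, the catalytic subunit, fell in the shIRE1 clones by 0.57 ± 0.04 and 0.71 ± 0.06 (SE, log2) and was not called in the shXBP1 clones (-0.15 ± 0.10 and -0.17 ± 0.08). DPM2, a regulatory subunit, fell in the shIRE1 clones by 0.68 ± 0.07 and 0.70 ± 0.08 and in shXBP1 clone 1 by 0.51 ± 0.12. DPM3, which holds DPM1 in the membrane, stood at 1.77 to 5.94 CPM and was not called at 72 h in any clone although its changes were -0.35 ± 0.22, -0.28 ± 0.26, -0.63 ± 0.32 and -0.69 ± 0.27. MPDU1 was called lower in every clone, with falls of 0.26 to 0.53.

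On the cytosolic face DPAGT1 adds the first sugar, ALG13 and ALG14 together the second, and ALG1, ALG2 and ALG11 the mannoses that follow. At 72 h 3 of these 6 genes, DPAGT1, ALG14 and ALG2, were lower in both shIRE1 clones (21.4% of all genes tested in both). ALG14, the membrane anchor of the GlcNAc transferase, read 8.97, 10.3 and 9.76 CPM at 0 h and 4.22, 4.63 and 3.61 CPM at 72 h in shIRE1 clone 1. ALG14 in shIRE1 clone 3 read 11.1, 10.99 and 8.95 CPM and then 4.38, 4.48 and 4.32 CPM. Every treated library was below every untreated one, with changes of -1.23 ± 0.10 (SE, log2, adjusted p = 5.46e-09) and -1.27 ± 0.11 (adjusted p = 1.3e-07). ALG14 in shXBP1 clone 1 read 10.3, 10.3 and 9.77 CPM and then 8.77, 8.11 and 9.27 CPM, without overlap and with no call (-0.24 ± 0.092, adjusted p = 0.0622). At 48 h edgeR called it lower in this clone, a call lost with a replicate block (adjusted p = 0.0719) and with DESeq2 (adjusted p = 0.0636). In shXBP1 clone 18 it read 9.10, 9.26 and 10.2 CPM and then 7.97, 7.50 and 9.24 CPM, an overlap, with no call (-0.21 ± 0.11, adjusted p = 0.234). At 48 h edgeR called ALG14 lower in clone 18 only under other settings, as with all 48 libraries (-0.33, adjusted p = 0.0193) or without the doubtful library (-0.33, adjusted p = 0.0294). The difference of the changes was -1.03 (95% interval -1.22 to -0.83, adjusted p = 1.3e-11). ALG13, the catalytic partner of ALG14, did not share this fall, since it stood at 39.0 to 58.1 CPM over the 48 libraries and was not called in any clone at 72 h.

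ALG1, the first mannosyltransferase, was called lower in both shXBP1 clones at 72 h. In shXBP1 clone 18 the call of ALG1 was lost with only the 6 libraries compared (adjusted p = 0.0511), and in shIRE1 clone 1, where it was not called, it was called lower with RLE scaling, with the 6 libraries or without untreated replicate 1 (adjusted p = 0.0398, 0.0457 and 0.0495). In shXBP1 clone 1 it read 26.0, 19.4 and 18.4 CPM at 0 h and 11.8, 9.96 and 12.4 CPM at 72 h. ALG1 in shXBP1 clone 18 read 15.9, 17.6 and 14.7 CPM and then 12.3, 10.3 and 10.46 CPM. The groups did not overlap, and the falls were 0.92 ± 0.14 (SE, log2, adjusted p = 0.000443) and 0.54 ± 0.10 (adjusted p = 0.00697). In shIRE1 clone 1 it read 14.7, 15.5 and 16.6 CPM and then 14.0, 13.8 and 13.7 CPM (-0.18 ± 0.082, adjusted p = 0.06), and in shIRE1 clone 3 it read 14.2, 12.7 and 13.8 CPM and then 13.9, 14.0 and 12.2 CPM (-0.06 ± 0.090, adjusted p = 0.594). The treated libraries lay just under the untreated ones in clone 1 and among them in clone 3. The shIRE1 minus shXBP1 difference of ALG1 was 0.61 (95% interval 0.41 to 0.82, adjusted p = 5.3e-06). Other genes share 12.3% of the 50-base words of the ALG1 transcript, the copy ALG1L15P the most.

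ALG2, the next mannosyltransferase, was lower in all 4 clones, by 0.28 ± 0.05 and 0.48 ± 0.06 (SE, log2) in the shIRE1 clones and by 0.49 ± 0.07 and 0.80 ± 0.07 in the shXBP1 clones. DPAGT1 went from 157 to 101 CPM (mean) in shIRE1 clone 1 and from 148 to 94.8 CPM in shIRE1 clone 3. It went from 160 to 138 CPM in shXBP1 clone 1 and was not called in shXBP1 clone 18. The libraries of clone 18 read 125, 124 and 117 CPM at 0 h and 102, 97.9 and 133 CPM at 72 h. The last is the library that resembles clone 1, and without it DPAGT1 was called lower in both shXBP1 clones. ALG11 was not called in any clone at 72 h. UTP14C shares 84.8% of the 50-base words of the ALG11 transcript, so that its own level is not known.

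At 72 h 7 of 7 genes of the lumenal face were lower in shIRE1 clone 1 and 6 of 7 in shIRE1 clone 3, while edgeR called 0 of 7 in each shXBP1 clone, also without the doubtful libraries. Among all genes tested 31.1% and 30.5% were called lower in the shIRE1 clones, and 16.8% and 5.55% in shXBP1 clones 1 and 18. At the low shares of the shXBP1 clones, 0 of 7 is not by itself a result about these genes. With all 48 libraries in the fit edgeR called ALG10B higher in shXBP1 clone 1 at 72 h (0.26, adjusted p = 0.0212), and without replicate 1 at 72 h it called ALG9 lower in shXBP1 clone 18 (-0.43, adjusted p = 0.0191). At an unadjusted p under 0.05 there was 1 of 7 in each shXBP1 clone, and for ALG9, ALG10 and ALG10B, the members tested with other tools, DESeq2 and limma gave adjusted p of 0.0919 to 0.985. ALG3, ALG9 and ALG12 add mannose, and ALG6, ALG8, ALG10 and ALG10B add the glucoses. ALG9 read 7.35, 6.93 and 6.80 CPM at 0 h and 3.06, 3.53 and 2.45 CPM at 72 h in shIRE1 clone 1. ALG9 in shIRE1 clone 3 read 8.41, 8.24 and 9.13 CPM and then 2.28, 2.85 and 2.57 CPM. These falls, with the groups far apart, were 1.22 ± 0.13 (SE, log2, adjusted p = 1.23e-07) and 1.78 ± 0.11 (adjusted p = 1.71e-09). ALG9 in shXBP1 clone 1 read 7.98, 9.46 and 9.63 CPM and then 7.29, 7.90 and 8.63 CPM, with overlap (-0.21 ± 0.12, adjusted p = 0.187). In shXBP1 clone 18 it read 13.6, 12.4 and 13.1 CPM and then 12.5, 10.6 and 8.81 CPM, also with overlap (-0.29 ± 0.12, adjusted p = 0.122). The difference was -1.25 (95% interval -1.49 to -1.02, adjusted p = 9.61e-12). A readthrough gene on the same strand shares 30.5% of the 50-base words of the ALG9 transcript.

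ALG10 and ALG10B encode closely related enzymes that add the last glucose. ALG10 read 28.8, 27.9 and 27.3 CPM at 0 h and 10.3, 11.1 and 12.5 CPM at 72 h in shIRE1 clone 1, and 25.3, 27.9 and 28.2 CPM and then 10.6, 9.26 and 12.5 CPM in shIRE1 clone 3. The treated libraries were far below the untreated ones, with changes of -1.32 ± 0.082 (SE, log2, adjusted p = 6.42e-11) and -1.37 ± 0.10 (adjusted p = 2.16e-08). In shXBP1 clone 1 ALG10 read 22.9, 28.9 and 25.3 CPM and then 25.1, 26.6 and 26.9 CPM, and in shXBP1 clone 18 it read 21.6, 23.5 and 20.5 CPM and then 20.1, 22.7 and 26.1 CPM. Groups overlapped in both, with changes of -0.00 ± 0.12 and 0.07 ± 0.099. The shIRE1 minus shXBP1 difference of ALG10 was the largest of the 38, at -1.38 (95% interval -1.59 to -1.17, adjusted p = 5.47e-14). A gene on the opposite strand overlaps 39.67% of the exonic bases of ALG10, and whether counting used strand is not known.

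ALG10B read 47.3, 47.0 and 44.3 CPM at 0 h and 28.9, 29.2 and 29.7 CPM at 72 h in shIRE1 clone 1. In shIRE1 clone 3 it started higher, at 59.8, 66.3 and 61.2 CPM, and came to 28.5, 27.8 and 30.0 CPM. Treated libraries of ALG10B were alike in both clones at 72 h, and the falls were 0.67 ± 0.063 and 1.15 ± 0.074 on the log2 scale (adjusted p = 2.81e-08 and 3.17e-09). For shXBP1 clone 1 the values were 36.8, 47.1 and 48.3 CPM and then 51.4, 53.2 and 54.3 CPM. For shXBP1 clone 18 they were 41.01, 46.6 and 40.8 CPM and then 40.9, 46.3 and 51.0 CPM. The treated libraries of clone 1 all lay above the untreated ones without a call in the fit of 12 libraries (0.24 ± 0.11, adjusted p = 0.128) and with a call for ALG10B in that of all 48, and those of clone 18 overlapped (0.11 ± 0.089, adjusted p = 0.475). The difference between shRNAs was -1.08 (95% interval -1.26 to -0.90, adjusted p = 4.85e-13). ALG10B shares 28.2% of the 50-base words of the ALG10 transcript, and the reads of this stretch cannot be assigned to either gene with certainty.

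ALG6 and ALG8, which add the first and second glucose, fell in shIRE1 clones 1 and 3 by 0.70 ± 0.07 and 0.64 ± 0.07 (ALG6, SE, log2) and by 0.49 ± 0.05 and 0.36 ± 0.08 (ALG8). In the shXBP1 clones ALG6 changed by 0.01 ± 0.09 and 0.16 ± 0.08 and ALG8 by -0.08 ± 0.06 and 0.06 ± 0.05, with no call. ALG3, at 127.1 to 267 CPM over the 48 libraries, was lower by 0.33 in each shIRE1 clone, with SE of 0.05 and 0.10, and with shXBP1 it changed by -0.30 ± 0.13 and -0.12 ± 0.08 in clones 1 and 18. ALG12, whose promoter held the spaced word, was lower in shIRE1 clone 1 (-0.27 ± 0.10) and was not called in shIRE1 clone 3 (0.09 ± 0.16), shXBP1 clone 1 (-0.33 ± 0.20) or shXBP1 clone 18 (-0.24 ± 0.14).

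**Figure D3:**
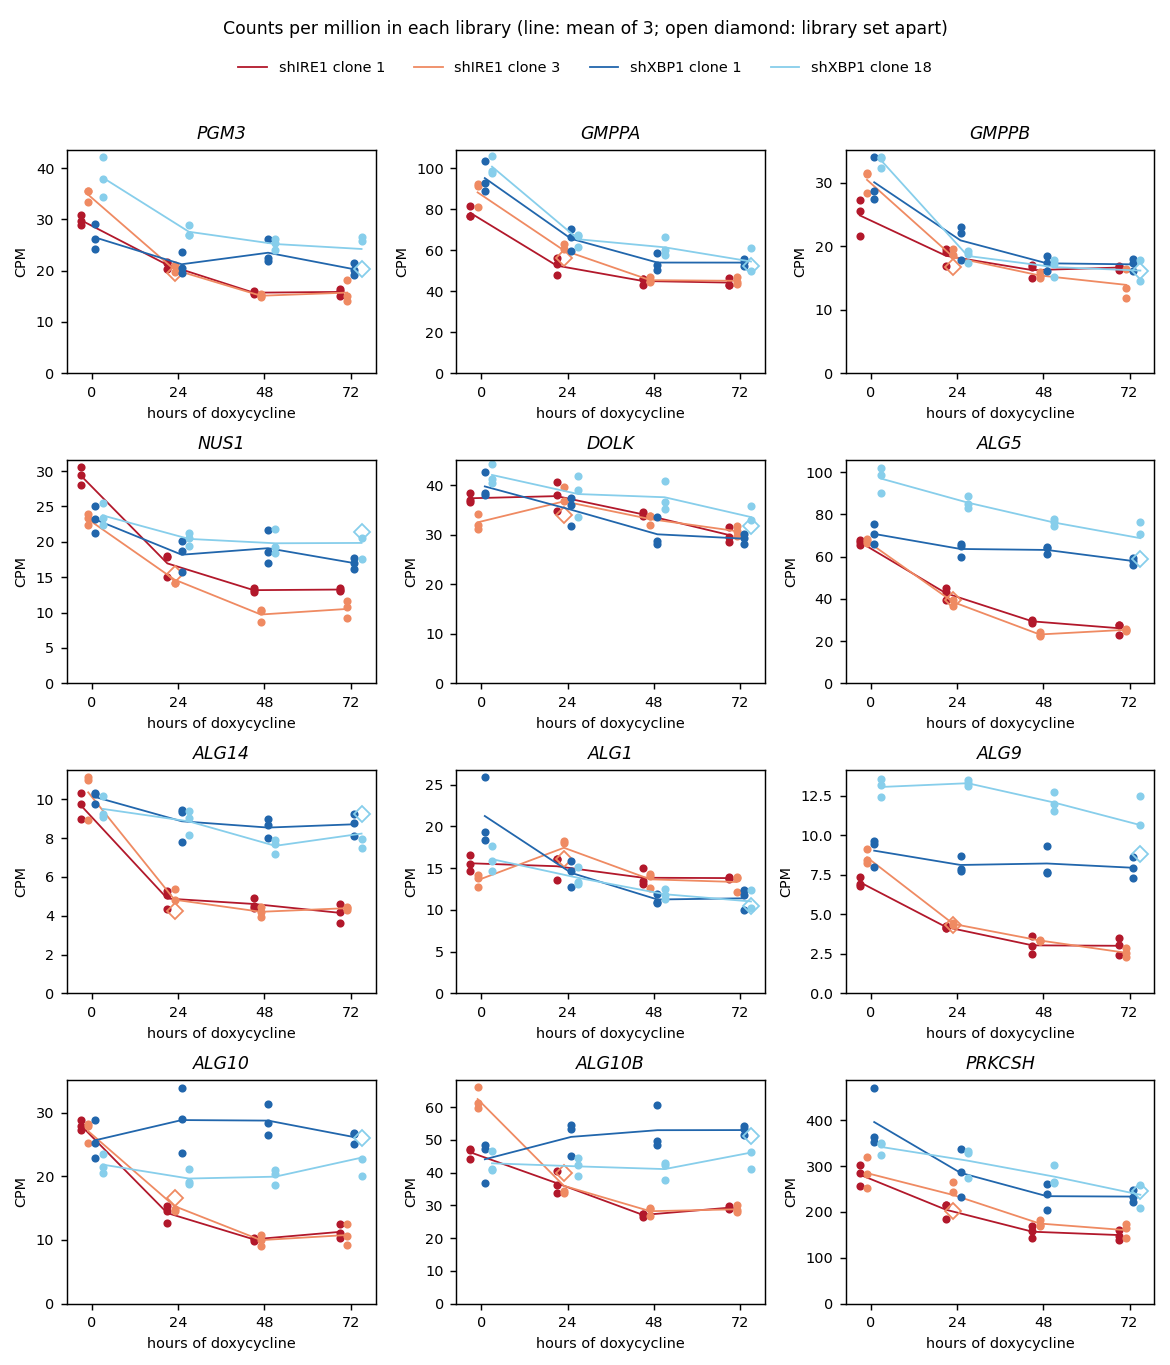
CPM in each library against hours of doxycycline for the 12 genes given in full, by clone. Points are libraries, lines join the means of 3 libraries and open diamonds are the libraries that resemble another clone. ALG9, ALG10, ALG10B, ALG14, ALG5 and NUS1 drop in both shIRE1 clones (red and orange). ALG5 also drops by less in both shXBP1 clones, and NUS1 by less in shXBP1 clone 1, while GMPPA and GMPPB drop in all 4.

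Trimming starts with MOGS, which removes the outer glucose, and goes on with glucosidase II, formed by the catalytic GANAB and the regulatory PRKCSH. UGGT1 and UGGT2 put glucose back on misfolded glycoproteins. PRKCSH, the member with the largest mean fall for either shRNA, read 256, 285 and 302 CPM at 0 h and 161, 148 and 139 CPM at 72 h in shIRE1 clone 1. In shIRE1 clone 3 it read 252, 282 and 319 CPM and then 165, 173 and 142 CPM. The falls of PRKCSH, with no overlap, were 0.92 ± 0.071 (SE, log2, adjusted p = 1.41e-09) and 0.86 ± 0.10 (adjusted p = 3.17e-06). For shXBP1 clone 1 it gave 471, 364 and 352 CPM and then 247, 221 and 232 CPM, and for shXBP1 clone 18 it gave 351, 325 and 349 CPM and then 258, 208 and 246 CPM. The treated libraries were below the untreated ones in both, by 0.79 ± 0.14 (adjusted p = 0.00176) and 0.52 ± 0.091 (adjusted p = 0.00366). The difference between shRNAs missed the threshold at -0.24 (95% interval -0.46 to -0.01, adjusted p = 0.0798). For PRKCSH it was called with no filter on low counts (-0.23, adjusted p = 0.0035) and on leaving out replicate 1 of untreated shXBP1 clone 1, replicate 1 of untreated shIRE1 clone 3 or replicate 2 of shXBP1 clone 18 at 72 h (adjusted p = 0.0178, 0.0449 and 0.0432).

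GANAB, at 449.7 to 912.2 CPM over the 48 libraries, fell from 758 to 461 CPM (mean) and from 754 to 477 CPM in the shIRE1 clones, and from 850 to 699 CPM and 895 to 745 CPM in the shXBP1 clones. MOGS fell by 0.63 ± 0.09 and 0.53 ± 0.08 (SE, log2) in the shXBP1 clones, by 0.20 ± 0.06 in shIRE1 clone 1, and by an uncalled 0.16 ± 0.08 in shIRE1 clone 3. UGGT1 fell in the shIRE1 clones by 0.44 ± 0.04 and 0.38 ± 0.06 and was not called in the shXBP1 clones. UGGT2 was lower in shIRE1 clone 3 (-0.40 ± 0.08), higher in shXBP1 clone 1 (0.44 ± 0.10) and not called in the others. MAN1B1 rose from 36.4 to 66.7 CPM (mean) in shIRE1 clone 1 and from 57.4 to 73.6 CPM in shIRE1 clone 3. In shXBP1 clone 1 MAN1B1 stood at 38.1 and 37.0 CPM, and in shXBP1 clone 18 it fell from 46.2 to 36.9 CPM.

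To ask whether the changes differ between the shRNAs, the mean change of the shIRE1 clones was set against that of the shXBP1 clones in a model of all 48 libraries. At 72 h 19 of the 38 genes had a lower and 8 a higher value with shIRE1 (27.4% and 28% of all genes). At 48 h 18 were lower and 8 higher (28% and 28.9%), and at 24 h 16 were lower and 6 higher (19.7% and 19.1%). Without the doubtful libraries the counts were 20 and 8 at 72 h, 19 and 8 at 48 h, and 18 and 6 at 24 h. By role at 72 h the lower calls were 3 of 4 in UDP-GlcNAc supply, 0 of 5 in GDP-mannose supply, 2 of 5 in the dolichol group, 3 of 5 in the donors, 3 of 6 on the cytosolic face, 5 of 7 on the lumenal face and 3 of 6 in trimming. The higher calls were UAP1, MPI, PMM1, DHDDS, ALG1, ALG2, MOGS and MAN1B1.

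**Figure D4:**
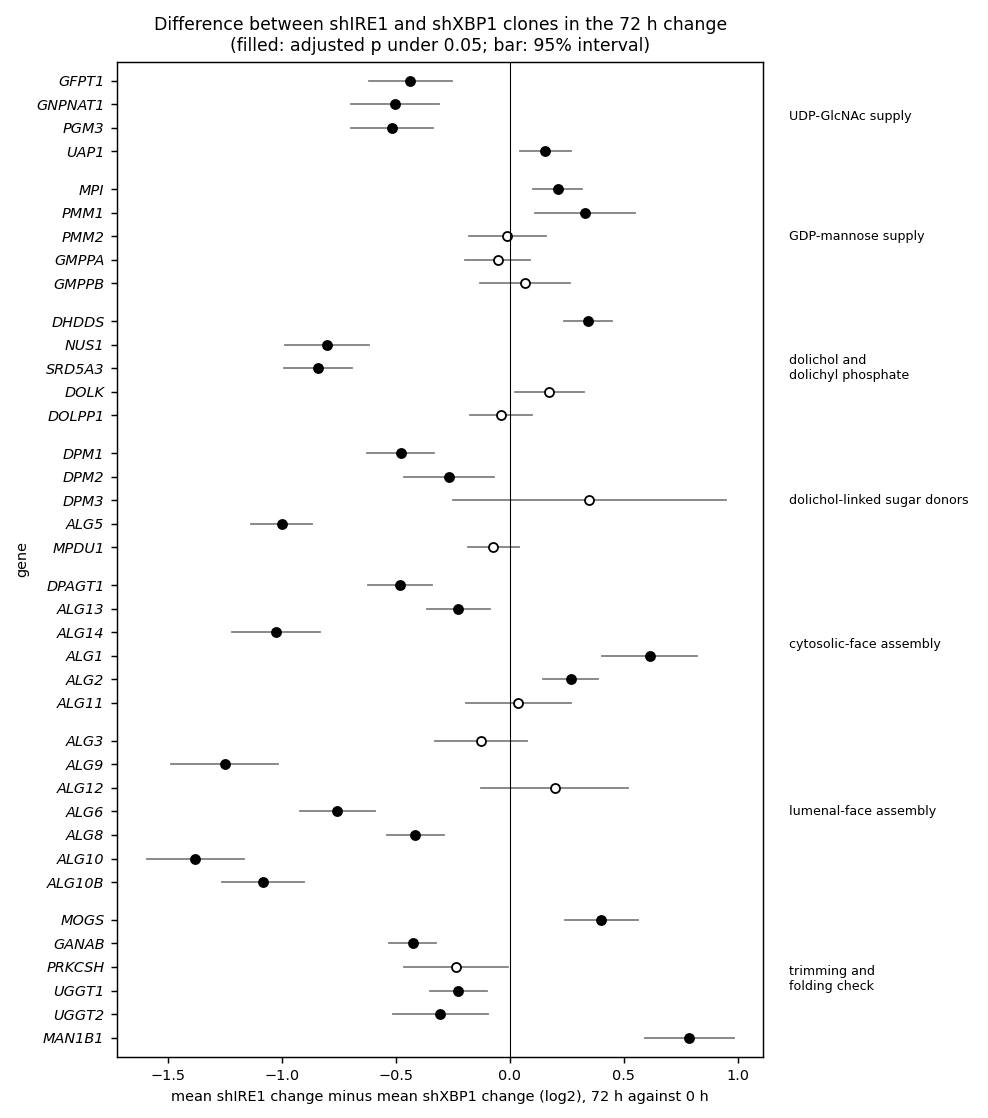
Mean shIRE1 change minus mean shXBP1 change (log2, 72 h against 0 h) for each of the 38 genes, grouped by role, with 95% intervals. Filled points have an adjusted p under 0.05. The points farthest to the left are ALG10 (-1.38), ALG9 (-1.25), ALG10B (-1.08), ALG14 (-1.03) and ALG5 (-1.002), and the intervals of GMPPA and GMPPB include 0.

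Clones of the same shRNA were compared in the same model. The 72 h change differed between shIRE1 clones 1 and 3 in 10 genes (27.5% of all genes called in either direction) and between shXBP1 clones 1 and 18 in 4 (24.6%). Before treatment, levels differed between the shIRE1 clones in 18 genes (40.6%), from GNPNAT1 at -0.52 to MAN1B1 at 0.68 (log2, clone 3 minus clone 1). Between the shXBP1 clones they differed in 21 (51.3%), from ALG12 at -0.42 to UGGT2 at 1.14 (clone 18 minus clone 1). Without the doubtful libraries the change differed in 10 and 3 genes, and untreated levels in 21 and 23. Of 18774 genes then tested, the changes called were 2621 higher and 3093 lower for shIRE1, and 1780 and 2081 for shXBP1. For untreated levels they were 4059 and 3970, and 4877 and 4991.

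Other genes of the pathway, from lists named by function, were counted at 72 h. The shares of all genes called lower were 31.1%, 30.5%, 16.8% and 5.55% in shIRE1 clones 1 and 3 and shXBP1 clones 1 and 18, those called higher were 32.5%, 29.7%, 16.8% and 4.41%, and no test compared the lists with them. Of the oligosaccharyltransferase genes tested, 10 of 11 and 11 of 11 were lower in shIRE1 clones 1 and 3, and 7 of 12 and 10 of 12 in shXBP1 clones 1 and 18. MAGT1, an oxidoreductase subunit, changed by -3.58 and -3.321 (log2) in the shIRE1 clones, and RPN1 by -1.33 and -1.41. In the shXBP1 clones OSTC changed by -0.89 and -1.12 and STT3A, a catalytic subunit, by -0.74 and -0.56. Among 12 lectin chaperones and disposal genes 9 and 9 were lower and 2 and 1 higher in the shIRE1 clones, with PDIA3 at -1.83 and -1.32 and LMAN1, a cargo receptor, at a mean of -1.36. In the shXBP1 clones 6 and 8 were lower and 2 and 1 higher, with LMAN1 at -0.49 and -0.66 and ERLEC1 at -0.38 and -0.75.

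Later and side steps were counted in the same way, against the same shares of all genes. Of 19 Golgi processing genes 7 and 10 were lower and 4 and 4 higher in the shIRE1 clones, with ST3GAL6, a sialyltransferase, at -2.17 and -3.72 and MAN2A1, a mannosidase, at 1.13 and 1.31. In the shXBP1 clones 6 and 3 were lower and 3 and 0 higher, with MGAT4B at -0.76 and -0.90 and MGAT1 at -0.57 and -0.39. The hexosamine side branches gave 1 lower and 4 higher of 8 and 3 lower and 2 higher of 9 in the shIRE1 clones, with GNPDA1 at -0.82 and -0.40 and OGT at 0.58 and 0.55, and 1 and 3 lower and 2 and 0 higher of 9 in the shXBP1 clones. Of 8 genes for other uses of dolichol-linked mannose or the lipid carrier 2 and 3 were lower and 2 and 3 higher in the shIRE1 clones, with PIGA at -1.09 and -0.93.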

How the data were processed

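RNA of the 48 libraries was read as single ends with a stranded mRNA kit. Groups came from the labels (clone, hours of doxycycline, replicate). Titles write days, the treatment label hours, and hours were used. Deposited by the authors were raw gene counts and a second table of log2 CPM values, which equals edgeR log2 CPM up to rounding, although the plan had taken it for unlogged values. The submitters' processing notes name GSNAP and GRCh37, while the study describes GRCh38 for a related experiment, so that no gene coordinates are given. Promoters carry the RefSeq build, and overlaps and shared words come from GENCODE transcripts of the later assembly.

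Counts were scaled by TMM, filtered by filterByExpr (minimum count 10, minimum total 15) and fitted with edgeR 4.0.16 (quasi-likelihood test) in R 4.3.3, the 12 libraries of a clone together, or all 48 for comparisons across clones. The threshold was a Benjamini-Hochberg adjusted p of 0.05, taken across every gene in a fit. CPM values use TMM scaling over 48 libraries. Replicates are flasks of a clone, so p-values measure only the spread between flasks.

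The 38 genes and all lists were chosen with earlier results of these data known. Genes given in full led their role group in both clones of an shRNA at 72 h by mean change, or had one of the 5 largest differences between shRNAs. Other pathway genes are the top 2 of each list by the same rule. Some items that these rules name are not reported here. The test was checked on simulated counts at 72 h. In shXBP1 clone 18 edgeR recovered 3.58% of changes of 0.25 and 40.3% of changes of 0.5 (log2). In shIRE1 clone 1 it recovered 29.3% and 56.7%. False calls were 6.41% and 5.32% of all edgeR calls in these clones. They were 17.5% and 8.82% with DESeq2, and 7.84% and 6.22% with limma. Over 5 simulations, 335 genes in total were given a change of each of these sizes, among 16860 and 17154 genes per simulation. In shIRE1 clone 1 the real data had 31.1% of genes called lower and 32.5% higher, a far larger share. The rates depend on this share and need not hold for the real comparisons. A gene not called in shXBP1 clone 18 may still have changed by 0.25 or 0.5. Alternatives were RLE scaling, no filter, DESeq2 1.42.0, limma 3.58.1 on the log2 table, a replicate block, fewer or more libraries in a fit, and leaving out each library.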

Additional observations from a re-analysis of the deposited data

Results flagged for a closer look

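The following changes differed between groups of clones by a test of the difference itself (edgeR, adjusted p under 0.05). Between shIRE1 and shXBP1 the changes of 22, 26 and 27 of the 38 genes differed at 24, 48 and 72 h, and between the clones of an shRNA at 72 h those of 10 genes (shIRE1) and 4 genes (shXBP1). Among all genes tested between shRNAs, 19.7% were lower and 19.1% higher at 24 h. The shares were 28% and 28.9% at 48 h, and 27.4% and 28% at 72 h. Between clones, 27.5% (shIRE1) and 24.6% (shXBP1) of all genes differed, so that the counts of 10 and 4 are not particular to these genes.

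At 72 h the shIRE1 minus shXBP1 differences (log2) of the supply genes were -0.44 for GFPT1, -0.50 for GNPNAT1, -0.52 for PGM3, 0.16 for UAP1, 0.21 for MPI and 0.33 for PMM1. In the dolichol and donor groups they were 0.34 for DHDDS, -0.80 for NUS1, -0.84 for SRD5A3, -0.48 for DPM1, -0.27 for DPM2 and -1.002 for ALG5. On the cytosolic face they were -0.48 for DPAGT1, -0.23 for ALG13, -1.03 for ALG14, 0.61 for ALG1 and 0.27 for ALG2. ALG13 was called in neither shRNA on its own at 72 h. On the lumenal face the differences were -1.25 for ALG9, -0.76 for ALG6, -0.42 for ALG8, -1.38 for ALG10 and -1.08 for ALG10B. In trimming they were 0.40 for MOGS, -0.43 for GANAB, -0.23 for UGGT1, -0.31 for UGGT2 and 0.79 for MAN1B1.

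Between shIRE1 clones 3 and 1 (clone 3 minus clone 1, log2, 72 h) the change differed by -0.55 for GFPT1, -0.30 for MPI, -0.57 for GMPPB, -0.35 for SRD5A3, 0.27 for DOLPP1, 0.22 for MPDU1, -0.54 for ALG9, -0.48 for ALG10B, -0.40 for UGGT2 and -0.53 for MAN1B1. In GFPT1, MPI, GMPPB, SRD5A3, ALG9, ALG10B, UGGT2 and MAN1B1 the untreated level was higher in clone 3, and in DOLPP1 and MPDU1 it was lower. The comparison of untreated levels and that of changes share the 0 h libraries. Between shXBP1 clones 18 and 1 it differed by -0.28 for MPI, -0.23 for DHDDS, -0.34 for ALG2 and -0.69 for UGGT2. These values include replicate 3 of clone 18 at 72 h, the library that resembles clone 1. Without it the change was called higher in 1 gene and lower in 2, so not all of the listed lower calls were kept. Which of the listed genes kept their call is not given here.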

How the results depend on the processing

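Of 154 counts of called genes recomputed under another setting, 143 stayed within 1.5 times the value reported, and no named gene that was called changed direction. With only the 6 libraries compared, calls were 6 in shXBP1 clone 1 at 24 h (15 reported) and 8, 19 and 6 in shXBP1 clone 18 at 24, 48 and 72 h (5, 10 and 14). With all 48 libraries in the fit, shXBP1 clone 18 had 11 at 24 h, and between 24 and 72 h there were 1 in shXBP1 clone 1 and 4 in clone 18 (0 and 0). DESeq2 gave 1 and 2 there, and no filter on low counts gave 4 in clone 18. No filter also gave 4 genes for the difference of the shIRE1 clones (10). The cause was not tested.

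Leaving out each library in turn gave 26 to 27, 29 to 31 and 31 to 33 calls in shIRE1 clone 1 at 24, 48 and 72 h, and 23 to 26, 25 to 26 and 26 to 29 in shIRE1 clone 3. It gave 11 to 16, 13 to 15 and 19 to 21 in shXBP1 clone 1, and 3 to 11, 5 to 16 and 8 to 17 in shXBP1 clone 18. Between 24 and 72 h the ranges were 20 to 22 and 21 to 24 in the shIRE1 clones and 0 to 0 and 0 to 4 in the shXBP1 clones. For the difference between shRNAs they were 21 to 25, 25 to 29 and 26 to 29 at 24, 48 and 72 h, for that between clones 6 to 11 (shIRE1) and 3 to 6 (shXBP1), and for untreated levels 14 to 17 and 17 to 20. In shXBP1 clone 18, changes past 1.5 times came without any untreated library at each time, without replicates 1 or 3 at 24 h for the 24 h count, without replicates 1 or 2 at 48 h for the 48 h count, and without replicate 3 at 72 h (11 and 16 calls at 24 and 48 h). The 4 calls between 24 and 72 h came without replicate 1 at 72 h, and the 6 for the shIRE1 clones without replicate 1 of clone 3 at 72 h.

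The replicate numbers did not pair the libraries: over 24 pairs of groups the 72 correlations of same-numbered deviations ran from -0.409 to 0.246, and 5 passed 0.1. With the replicate number as a block the calls at 72 h were 33 and 27 in the shIRE1 clones and 20 and 13 in the shXBP1 clones, and 27 genes differed between shRNAs.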
